A study of Mus musculus with 42 samples.

Results

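The first step of a hepatic differentiation series was examined by comparing 6 arrays of mouse pluripotent cells at day 2 of embryoid body culture with 6 arrays of the same lines left untreated. The 12 arrays were taken by their titles from a series of 42, with 2 arrays for each line on each day, and the line entered every test as a block. The other 30 arrays held later days of the same lines and primary hepatocytes, and they served here for normalisation and for levels at later days. RNA had been measured on Illumina expression BeadChips, on which beads carry probes and the brightness of a bead type follows the amount of its transcript.

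The day 2 groups were embryonic stem (ES) cells, GPSC-A cells and GPSC-B cells, each kept for 2 days as embryoid bodies, which are floating aggregates in which pluripotent cells start to differentiate, in a cocktail for hepatic differentiation. The untreated groups were the same 3 lines under the standard growth protocol of each. ES cells come from the early embryo, and GPSC lines are pluripotent lines derived from germline cells. Aggregation, the cocktail and the time in culture changed together and cannot be told apart. The sources used here give no genotype, strain, passage or feeder layer for any of the 6 groups, and not what the cocktail held. They also do not say that the 2 arrays of a group came from separate cultures, so the scatter between these may be only technical. A p-value for the shared change measures that scatter together with differences between the lines in the change.

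As background, mouse pluripotent cells in standard culture are held in a naive state, in which the cytokine LIF, acting through Stat3, sustains a network that includes Klf4, Tbx3, Esrrb and Nanog. When they leave it, they pass through a formative and then a primed state like the epiblast before gastrulation, marked by Otx2, Fgf5, Pou3f1 and Dnmt3b, while Pou5f1 (Oct4) stays on. Cells spread on a surface also run an actin-dependent programme, in which SRF and YAP with its TEAD partners drive contractile, adhesion and matrix genes.

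Of 45281 probes, between 9873 and 13463 were detected per day 2 array and between 10792 and 15123 per untreated array. Replicate arrays correlated at 0.947 to 0.965 over the genes tested. Arrays numbered 1 had median raw signals of 139 to 156 and those numbered 2 of 116 to 139. The first untreated GPSC-B array stood closer to the first day 2 array of that line (r = 0.978) than to its own replicate (r = 0.947). Of 8 pluripotency markers 7 were tested and 0 were called, and their summed signal was strong on all 12 arrays. The sum was 24960 to 35660 on day 2 arrays and 33630 to 55890 on untreated arrays, lowest on a day 2 ES array. Bright genes weigh most in it. Pou5f1 had log2 signals of 13.57 to 14.38 at day 2, while Nanog ran from 5.21 to 8.40.

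The change shared by the 3 lines was mostly a loss of signal. Of 9070 genes tested, 396 were lower at day 2 (4.37%) and 146 were higher (1.61%), at an adjusted p under 0.05 in limma and a change of at least 2-fold. By fitted change, 101 of the lower genes moved at least 4-fold and 37 at least 8-fold, against 6 and 1 of the higher genes. Fitted changes also counted for the 54 lower and 8 higher genes undetected on every array of a day, whose folds are only bounds. Cavin2, fitted at 19.6-fold lower, was thus shown only to be at least 6.99-fold lower. All 396 lower genes were below untreated on average in each of the 3 lines, and all 146 higher genes were above it. Calling genes on their average over these lines favours that. In 330 of the 396 lower genes both day 2 arrays lay below both untreated arrays in every line, a pattern that 6.33% of all genes tested showed. As the genes were called on the same arrays, this describes them and is no further support. In 110 of the 146 higher genes they lay above them in every line, against 5.15% of all genes. The median change of the lower genes on the log2 scale was -1.87 (ES), -1.54 (GPSC-A) and -1.31 (GPSC-B), and that of the higher genes was 1.68, 1.13 and 1.09 in the same order. The change was largest in ES for 234 of the 396 lower genes and 104 of the 146 higher genes. Tested within each line at the same limits, 149 genes were higher and 389 lower in ES. In GPSC-A the counts were 16 and 115, and in GPSC-B 3 and 47. Without the ES arrays 70 genes were higher and 260 lower. The split depended on the scaling. When arrays were scaled to a common median in place of quantile normalisation, 24 genes were higher and 260 lower, so that 8.45% of calls were rises against 26.9%, and the median of all genes moved to -0.12 from 0.04. Within the arrays numbered 1 alone, 117 genes were higher and 273 lower, and within those numbered 2 alone, 33 and 202.

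**Figure D1:**
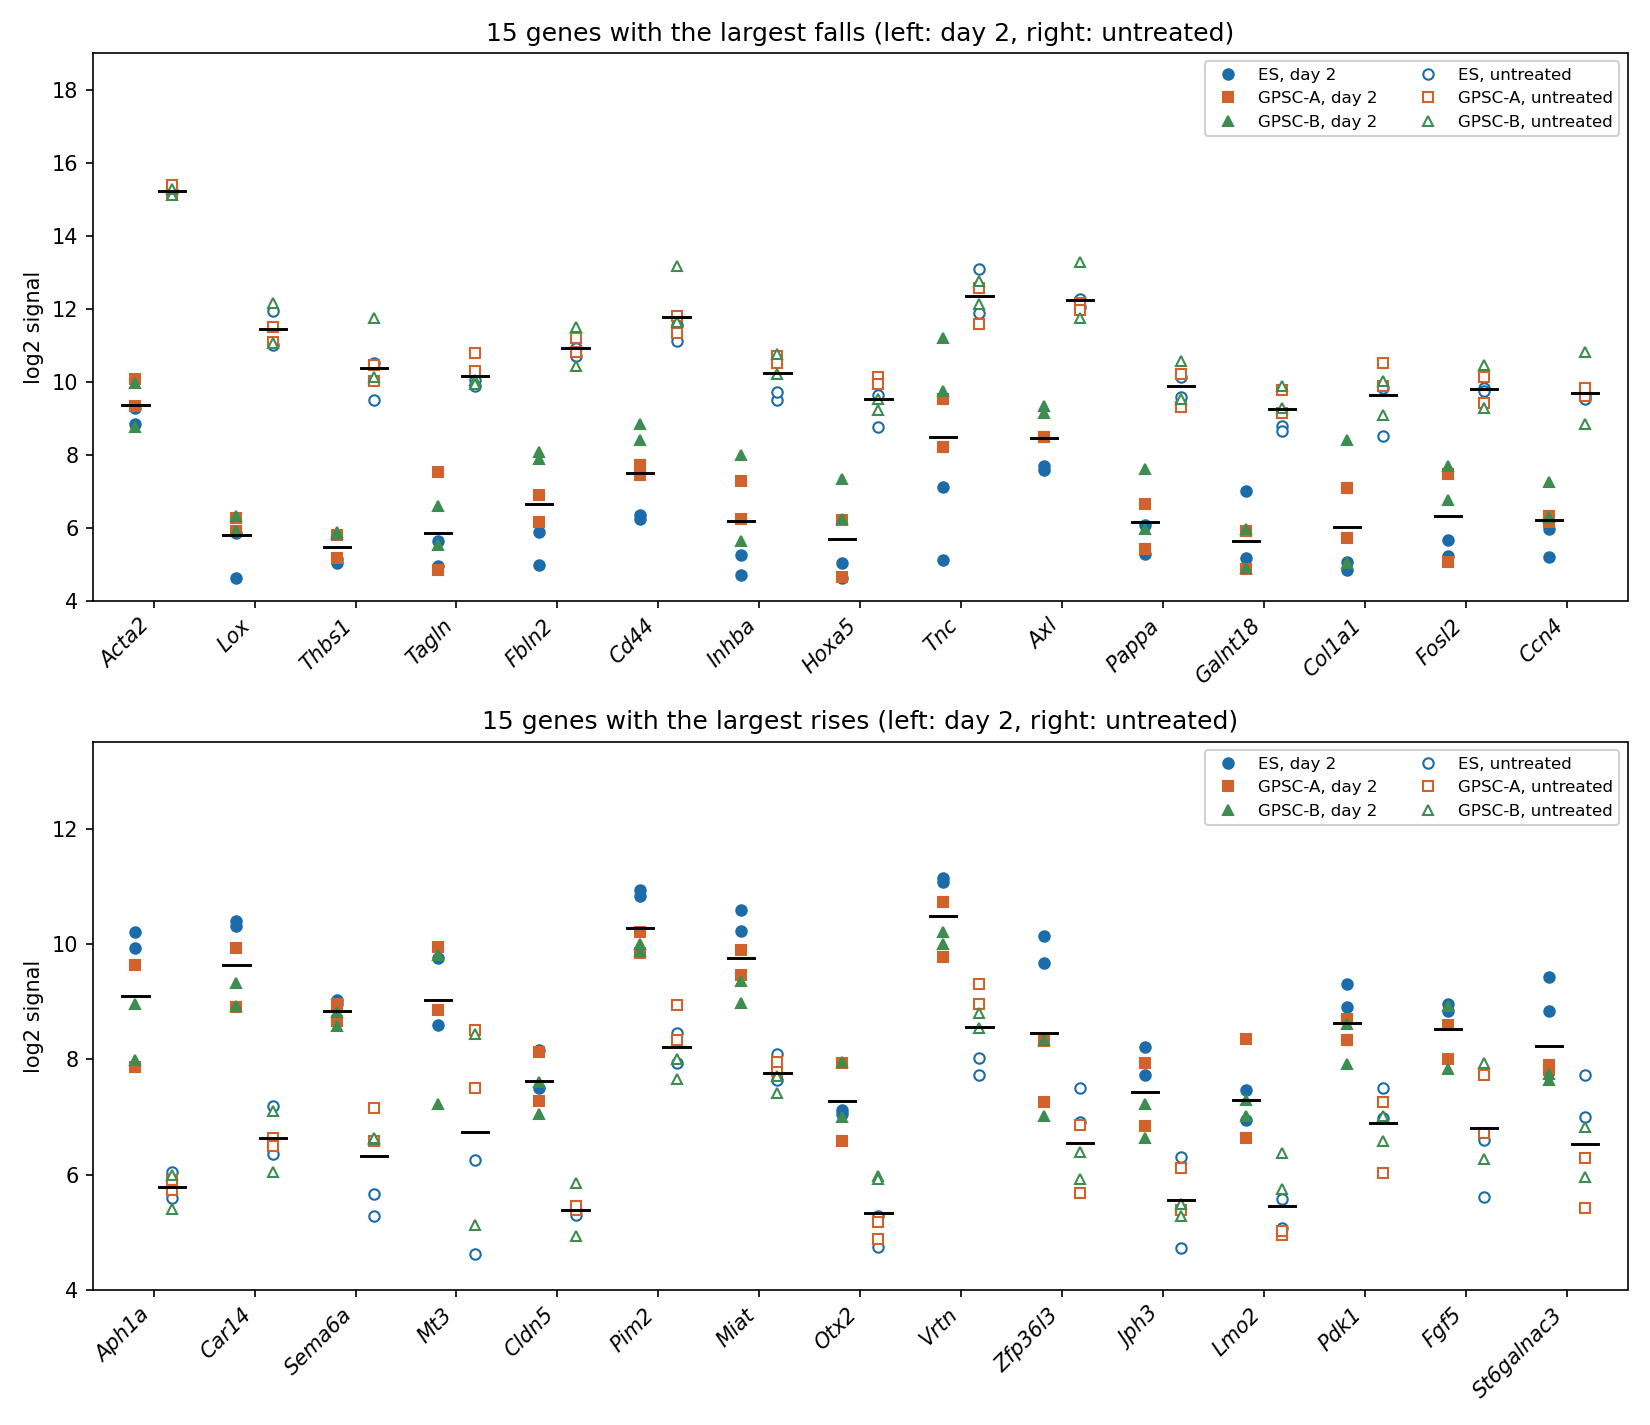
Log2 signal on each array for the 15 genes with the largest falls (top) and the 15 with the largest rises (bottom) among genes detected on both days. Filled symbols on the left are day 2 and open symbols on the right untreated, shapes and colours mark the lines, and bars are means of 6 arrays. For Acta2 the day 2 arrays sit between 8.76 and 10.09, all below the untreated arrays at 15.11 to 15.38.

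The largest falls were in genes of the contractile cytoskeleton and the extracellular matrix. Acta2 encodes smooth muscle alpha-actin, the actin of contractile smooth muscle and of myofibroblasts. Its log2 signal was 8.76, 9.31 and 10.09 at day 2 (lowest, median and highest of 6 arrays) and 15.11, 15.21 and 15.38 in untreated cells. The change of -5.84 ± 0.23 (log2 ± SE) is a 57.2-fold lower signal (limma adjusted p = 3.0e-08). All day 2 arrays lay far below all untreated arrays, and 3 other Acta2 probes gave changes of -4.10 to -6.15. Tagln, an actin-binding protein of the same cells, read 4.86, 5.59 and 7.53 at day 2 and 9.88, 10.04 and 10.80 in untreated cells. It changed by -4.32 ± 0.38 (adjusted p = 1.8e-05), without overlap. Of 17 tested members of the smooth muscle contractile list (22 entries), 8 were lower and 0 higher, where 4.37% of all genes were lower. The list median was -0.98 against 0.04 over all genes. This list and the others below were chosen with earlier results of these data known. Their shares therefore describe the members and are no independent test. Of the 10 detected on all 12 arrays 4 were lower (40%), against 2.46% of all such genes. The others called were Actg2, the enteric smooth muscle actin, the myosin light chain Myl9 (-2.23), the tropomyosins Tpm1 (-1.84) and Tpm2 (-1.79), the actin cross-linker Actn1 (-1.20) and the LIM protein Csrp1 (-1.18). Actg2 was undetected on all day 2 arrays and at least 2.27-fold lower (adjusted p = 0.0010). It is close to Acta2 in sequence, so that its probe may read both. The smooth muscle myosin Myh11 (-0.48), desmin, Des (-0.58), and the cytoskeletal genes Vcl (-0.43) and Flna (-0.61) did not pass.

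Matrix genes fell in larger numbers. Of the 35 tested members of the fibroblast and matrix list (51 entries, 48 with a probe), 24 were lower and 0 higher. The median was -1.96, and 4.37% of all genes were lower. Since a gene seen on untreated arrays alone could pass the detection filter, the same count was taken over the 13 members detected on all 12 arrays. There 9 were lower (69.2%), against 2.46% of the 5528 genes detected on all arrays. Lox encodes lysyl oxidase, which cross-links collagen and elastin. Its signal was 4.62, 5.91 and 6.34 at day 2 and 11, 11.30 and 12.17 in untreated cells, a change of -5.65 ± 0.29 (limma adjusted p = 3.2e-07). Thrombospondin 1, Thbs1, an adhesive matrix glycoprotein that can activate latent TGF beta, read 5.05, 5.50 and 5.89 at day 2 against 9.51, 10.29 and 11.74 in untreated cells. It changed by -4.91 ± 0.27 (adjusted p = 5.2e-07). In both genes the day 2 values were near the level of undetected probes and the 2 sets of arrays were far apart.

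The collagen gene Col1a1, the main chain of type I collagen, was more scattered at day 2. Its signal was 4.84, 5.41 and 8.41 at day 2, the highest on the first GPSC-B array, and 8.53, 9.86 and 10.51 in untreated cells. It changed by -3.61 ± 0.51 (limma adjusted p = 5.9e-04). The partner chain Col1a2 did not pass (-0.38). Fibulin 2, Fbln2, an elastic fibre component, read 5, 6.53 and 8.09 at day 2 against 10.43, 10.87 and 11.50 in untreated cells, with the day 2 values of GPSC-B highest. Tenascin C, Tnc, an anti-adhesive matrix protein, had the widest spread, at 5.12, 8.87 and 11.19 at day 2 and 11.58, 12.36 and 13.08 in untreated cells. Its day 2 arrays ran from the ES pair at the bottom to the GPSC-B pair at the top. Further lower genes were the proteoglycan Bgn (-3.47), the collagen chain Col5a1 (-2.92), fibronectin, Fn1 (-1.84), the collagen chaperone Serpinh1 (-2.10), the protease inhibitors Timp1 (-2.13), Timp2 (-2.46) and Timp3 (-1.86), and the mesenchymal transcription factor Prrx1 (-2.42). Decorin, Dcn (0.07), Mmp2 (-0.66) and Eln (-0.46) did not pass.

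Further large falls included a receptor, a secreted factor and a protease. Cd44, the receptor for hyaluronan, read 6.24, 7.59 and 8.84 at day 2 against 11.12, 11.60 and 13.18 in untreated cells, a change of -4.27 ± 0.29 (limma adjusted p = 3.5e-06). Inhba, the activin A subunit, changed by -4.04 ± 0.36 and was detected on 3 of 6 day 2 arrays. Pappa, a protease that frees IGF from its binding proteins, changed by -3.72 ± 0.35, and the AP-1 factor Fosl2 by -3.50 ± 0.42. Of 11 tested members of the epithelial to mesenchymal transition list, 7 were lower and 0 higher, where 4.37% of all genes were lower. In that list 4 were lower without ES or without background correction. Of the 4 detected on all 12 arrays 2 were lower, against 2.46% of all such genes. The lower members include vimentin, Vim, the intermediate filament of mesenchymal cells, at 9.73, 10.39 and 10.82 at day 2 and 12.20, 12.43 and 13.35 in untreated cells (-2.21 ± 0.19). The transcription factors Twist2 (-2.35), Foxc1 (-1.92), Zeb1 (-1.40) and Snai1 (-1.01) were also called, while Zeb2 (-0.38) and Twist1 (0.13) were not. The epithelial cadherin Cdh1 was at 6.52, 6.80 and 7.16 at day 2 and 4.82, 6.4 and 6.74 in untreated cells, a difference that did not pass (adjusted p = 0.15).

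**Figure D2:**
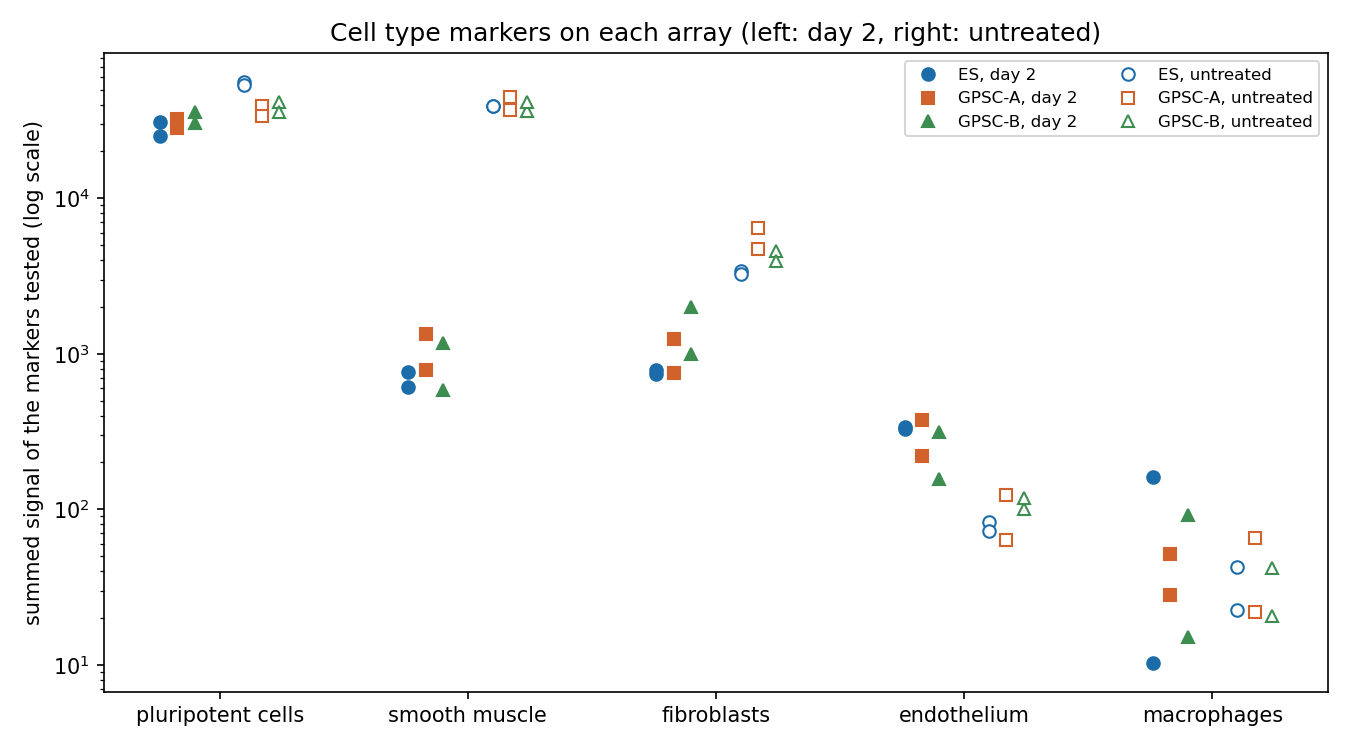
Summed signal (log scale) of the tested markers of 5 cell types on each array, with day 2 on the left of each pair and untreated on the right. Smooth muscle markers sum to 583 to 1345 at day 2 and 36650 to 44560 in untreated cells, while pluripotency markers differ far less.

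Summed markers of fibroblasts and smooth muscle were lower at day 2. They include genes named above, such as Acta2 and Col1a1, so they are no separate result. The 2 sets tested on few markers are given next. The endothelial sum was higher, at 157 to 377 at day 2 and 63.6 to 124 in untreated cells. Of 7 macrophage markers 1 was tested and was not called, so this set says little. In the longer macrophage and leukocyte list, 3 of 6 tested genes were lower (50%, against 4.37% of all genes). They were Lyz2 (-3.09), Laptm5 (-1.91) and Lyz1 (-1.90). Without ES 2 were lower, and Laptm5 missed the threshold (-1.01, limma adjusted p = 0.42). The 1 member detected on all 12 arrays was not called. Of 12 fibroblast markers, 6 were tested and 4 were lower (Col1a1, Thy1, Twist2 and Prrx1). Their summed signal was 746 to 2011 on day 2 arrays and 3247 to 6458 on untreated arrays. Col3a1, Pdgfrb, Postn, Lum, Fap and S100a4 did not pass the detection filter. Of 6 smooth muscle markers, 5 were tested and 3 were lower. Their sum of 583 to 1345 at day 2 and 36650 to 44560 in untreated cells was largely Acta2. The part of other cells in the result was not tested. In bulk RNA, fewer cells of a type and less RNA per cell cannot be told apart.

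Some targets of YAP and SRF were lower at day 2. Ankrd1, a muscle ankyrin repeat protein and a much used readout of YAP, was undetected on all 6 day 2 arrays and detected on all untreated arrays. It read 4.62, 4.72 and 5.15 at day 2 and 8.75, 9.70 and 10.33 in untreated cells, which is at least 11.2-fold lower (limma adjusted p = 1.2e-07). Ccn2, the connective tissue growth factor and a direct YAP target, stayed bright at 10.91, 11.32 and 11.48 at day 2, against 13.64, 14.01 and 14.70 in untreated cells. It changed by -2.80 ± 0.21 (adjusted p = 6.2e-06), in every line by -2.49 to -3.08. Its relative Ccn1 changed by -2.48 ± 0.36, with its day 2 arrays at 6.69 to 9.89 just overlapping the untreated ones at 9.53 to 11.49. Of 13 tested members of the YAP and SRF list, 6 were lower and 0 higher (median -0.78), where 4.37% of all genes were lower. Of the 11 detected on all 12 arrays 4 were lower (36.4%), against 2.46% of all such genes. The receptor tyrosine kinase Axl changed by -3.78 ± 0.27, the LIM protein Fhl1 by -1.18 and the angiomotin Amotl2 by -1.05. Srf itself (-0.03) and Actb (-0.16) did not pass.

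Promoter sequence from RefSeq (GRCm38.p6) is shown for 3 of these genes because they carry the letters searched for. The windows are the 250 bases before the annotated start, 5′ to 3′ on the strand of the gene. GGAATG, the core bound by TEAD factors, was searched on both strands and is in capitals in the first pair. It stands 2 times in the Ankrd1 window (chr19:36119845-36120094, minus strand), at -210 to -205 and -123 to -118. In the Ccn1 window (chr3:145649986-145650235, minus strand) it stands on the other strand at -103 to -98. In the Myl9 window (chr2:156775214-156775463, plus strand) the capitals mark a CArG box, the site of SRF, at -161 to -152.
Ankrd1: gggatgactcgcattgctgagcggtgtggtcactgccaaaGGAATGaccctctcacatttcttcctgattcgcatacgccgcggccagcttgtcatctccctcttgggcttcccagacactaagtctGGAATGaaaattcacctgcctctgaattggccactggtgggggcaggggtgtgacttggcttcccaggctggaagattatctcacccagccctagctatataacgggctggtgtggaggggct
Ccn1: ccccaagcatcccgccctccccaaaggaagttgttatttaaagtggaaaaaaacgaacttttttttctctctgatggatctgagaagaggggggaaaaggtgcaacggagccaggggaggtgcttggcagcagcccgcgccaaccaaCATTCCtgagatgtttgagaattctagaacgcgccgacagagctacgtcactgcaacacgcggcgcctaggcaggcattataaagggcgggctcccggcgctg
Myl9: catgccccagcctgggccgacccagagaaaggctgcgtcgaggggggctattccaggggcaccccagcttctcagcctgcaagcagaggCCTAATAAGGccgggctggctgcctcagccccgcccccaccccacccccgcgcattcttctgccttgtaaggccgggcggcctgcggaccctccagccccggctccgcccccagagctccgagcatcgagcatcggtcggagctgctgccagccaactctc
Of 32851 promoter windows of this length, 12.6% held GGAATG and 1.47% held a CArG box. Counted by gene, the shares were 14.4% and 1.62%. Among tested genes of the YAP and SRF list with a window, 5 of 10 held GGAATG, and 4 of the 5 lower ones. Among tested smooth muscle genes with a window, 3 of 14 held a CArG box, and 1 of the 6 lower ones. A match is a description of letters and not a measured site.

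In all, 54 of the 396 lower genes were undetected on every day 2 array. Cavin2 and Cavin1, which coat caveolae, were at least 6.99-fold and 3.40-fold lower (limma adjusted p = 3.6e-06 and 5.9e-06). Itga11, a collagen-binding integrin subunit, was at least 4.53-fold lower, and Vcam1, an adhesion receptor of stromal and endothelial cells, at least 4.12-fold (4.4e-06 and 1.4e-05). Sprr2k, a small proline-rich protein of epithelial barriers, was at least 7.14-fold lower and the vasoconstrictor peptide Edn1 at least 2.65-fold (2.0e-06 and 6.2e-06). Each of these 6 genes was detected on all untreated arrays.

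Naive pluripotency genes fell in part. Of 18 tested members of the naive pluripotency list (24 entries), 6 were lower and 0 higher, where 4.37% of all genes were lower. The list median was -1.05. Of the 10 detected on all 12 arrays 4 were lower (40%), against 2.46% of all such genes. Klf4, a Krüppel-like factor of the naive network that is also expressed in differentiated epithelia and stroma, read 4.72, 6.33 and 7.28 at day 2 and 8.21, 9.49 and 10.74 in untreated cells. It changed by -3.30 ± 0.48 (limma adjusted p = 7.8e-04), with no overlap. Tbx3, a T-box factor downstream of LIF, changed by -1.59 ± 0.25, and Stat3, the transducer of LIF, by -1.41 ± 0.22. Klf5 changed by -1.46 ± 0.33, which became -0.80 and missed the threshold without ES (adjusted p = 0.14). Gbx2 (-1.25) and the methyltransferase cofactor Dnmt3l (-1.0) completed the 6, the last just past the 2-fold limit and lost in 14 of 30 alternative settings. Without the ES arrays the list had 3 lower members and a median of -0.30, and on the arrays numbered 2 alone 1 was lower.

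The core factors Pou5f1, Sox2 and Nanog were not called. Pou5f1 (Oct4) read 13.57, 13.93 and 14.38 at day 2 and 13.79, 14.06 and 14.27 in untreated cells. The difference of -0.09 ± 0.16 did not pass (limma adjusted p = 0.75), and a second probe gave -0.01. Sox2, its partner factor, was at 10.02, 10.78 and 11.18 at day 2 and 10.93, 11.13 and 11.78 in untreated cells (-0.49 ± 0.22, adjusted p = 0.19). Nanog was at 5.21, 7.12 and 8.40 at day 2 and 5.96, 8.09 and 9.14 in untreated cells (-0.75 ± 0.51, adjusted p = 0.39), with wide overlap. In ES both day 2 arrays lay below both untreated arrays for Sox2 (-1.07) and Nanog (-1.98). Of 13 tested members of the general pluripotency list, 1 was lower (7.69%), near the 4.37% of all genes. It was the F-box gene Fbxo15 (-1.71 ± 0.35), and without ES this call was lost (-1.02, adjusted p = 0.11).

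Genes induced by LIF and Stat3 were partly lower. Of 13 tested list members 6 were lower and 0 higher, where 4.37% of all genes were lower, and 3 were lower without ES. Of the 7 detected on all 12 arrays 2 were lower (28.6%), against 2.46% of all such genes. Socs3, the feedback inhibitor of LIF signalling and a direct Stat3 target, read 5.35, 6.39 and 6.85 at day 2 and 7.36, 8.11 and 9.07 in untreated cells. It changed by -1.92 ± 0.35 (limma adjusted p = 0.0033), and all day 2 arrays lay below all untreated arrays. Bcl3, a nuclear IkappaB protein, changed by -2.33 ± 0.37 and the early response gene Ier3 by -1.76 ± 0.24. Junb (-1.36) and Egr1 (-1.31) are shared with growth factor signalling. Icam1 was only just called (-1.69, adjusted p = 0.0495), and lost the call in 18 of 30 alternative settings, with adjusted p from 1.2e-04 to 0.21. The LIF receptor Lifr (-0.39) and Myc (0.10) did not pass.

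Genes of the formative and primed epiblast gave 8 of the 146 rises. Of 17 tested list members (23 entries), 8 were higher and 2 lower, with a median of 0.86, against 1.61% of all genes higher. Of the 12 detected on all arrays, 7 were higher (58.3%), against 1.1% of all such genes. The count was sensitive to the arrays used, with 3 higher without ES and 5 without GPSC-B. It was 4 with median scaling or in the series matrix, 5 without background correction, 4 and 2 on the arrays numbered 1 and 2 alone, and 5 when the second untreated ES, first day 2 ES, second untreated GPSC-B or first day 2 GPSC-B array was left out. Otx2, the homeobox factor that opens the primed programme, read 6.59, 7.08 and 7.96 at day 2 and 4.74, 5.23 and 5.98 in untreated cells. It changed by 1.94 ± 0.25 (limma adjusted p = 3.5e-04), and all day 2 arrays lay above all untreated arrays. Without background correction, and in the series matrix, the change was below 2-fold. Pou3f1 (Oct6), its partner in that state, read 11.85, 12.28 and 12.66 at day 2 and 9.61, 10.77 and 11.55 in untreated cells, a change of 1.53 ± 0.25 (adjusted p = 0.0015).

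Fgf5, the growth factor that marks epiblast after implantation, read 7.83, 8.72 and 8.96 at day 2 and 5.62, 6.66 and 7.93 in untreated cells. It changed by 1.71 ± 0.38 (limma adjusted p = 0.012), most in ES at 2.79, and in GPSC-B the 2 days overlapped. Without ES the change was 1.17 and missed the threshold (adjusted p = 0.20). The kinase Pim2, which promotes survival, read 9.84, 10.10 and 10.93 at day 2 and 7.65, 8.17 and 8.94 in untreated cells (2.06 ± 0.23, adjusted p = 8.4e-05). Sall2 (1.34), Zic2 (1.22), Cldn6 (1.06) and Sox3 (1.00) were the other rises. Cldn6, a tight junction protein of embryonic epithelia, lost its call without ES (0.58, adjusted p = 0.35). The nodal inhibitors Lefty1 (-1.12) and Lefty2 (-1.27) were the 2 lower members. Dnmt3b, the de novo methyltransferase of epiblast, was above untreated on all 6 arrays, at 14.23, 14.60 and 14.78 at day 2 and 13, 13.79 and 14.08 in untreated cells. Its change of 0.86 ± 0.20 (adjusted p = 0.013) was under 2-fold, and a second probe gave 1.90.

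**Figure D3:**
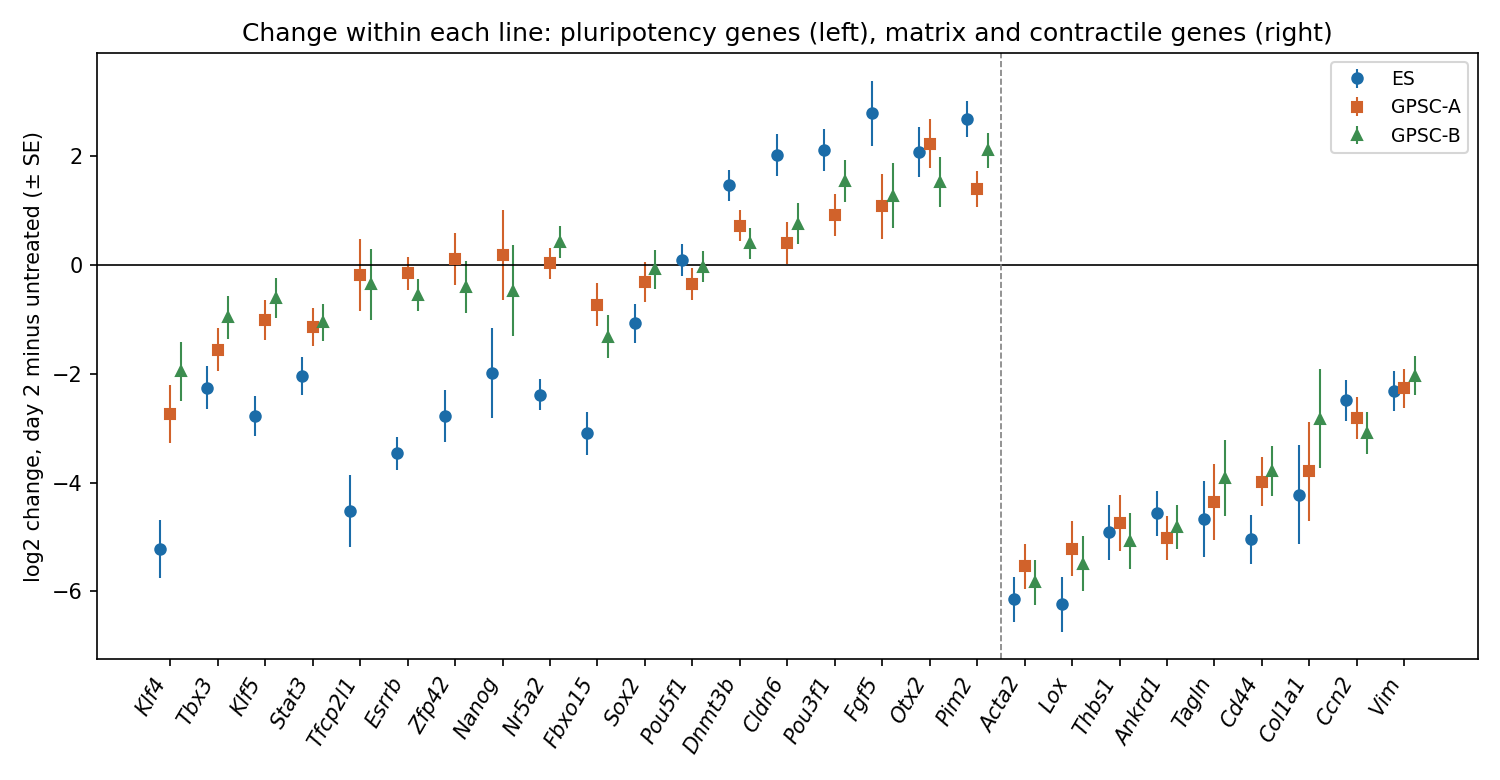
Log2 change at day 2 (day 2 minus untreated, ± SE of the fit within lines) in ES, GPSC-A and GPSC-B, for 18 pluripotency genes on the left and 9 matrix, contractile and YAP target genes on the right. For Esrrb the changes are -3.46, -0.15 and -0.55 in that order of lines, and for Acta2 they are -6.15, -5.53 and -5.83.

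Lines were compared by the interaction of day and line. This F test called 0 of 9070 genes (0%) in limma, with a lowest adjusted p of 0.084. At an unadjusted p under 0.05 it had 358 genes (3.95%), and with the replicate block within line 896, of which 0 passed after adjustment. A model of all 20 groups on 42 arrays, with more residual degrees of freedom, called 75. The smallest p was that of Esrrb, the orphan nuclear receptor of the naive network. Its 2 day 2 arrays in ES read 11.33 and 11.07 against 14.77 and 14.56 untreated, a change of -3.46 ± 0.30. In GPSC-A the day 2 arrays read 12.90 and 13.03 against 13.22 and 13.01 (-0.15 ± 0.30), and in GPSC-B 13.19 and 12.75 against 13.75 and 13.30 (-0.55 ± 0.30). Averaged over lines its change of -1.39 ± 0.44 was not called (adjusted p = 0.064). The same order held for Tfcp2l1, a naive factor downstream of LIF, at -4.53, -0.19 and -0.36 (SE 0.66), and for Zfp42 (Rex1), the marker of naive cells, at -2.77, 0.11 and -0.40 (SE 0.48). Their interaction had adjusted p of 0.27 and 0.49, so neither was called here, while in the model of 20 groups both were (0.0060 for Tfcp2l1 and 0.0097 for Zfp42) and Esrrb was not (0.071).

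Contractile and matrix genes varied in how far the lines differed. Acta2 changed by -6.15, -5.53 and -5.83 over the lines in the same order (SE 0.41) and Thbs1 by -4.91, -4.74 and -5.07 (SE 0.51). Ankrd1 had -4.56, -5.02 and -4.82 (SE 0.41), which are fitted values against an undetected level. Their interaction p values were 0.59, 0.90 and 0.74 before adjustment. Tnc changed by -6.36, -3.22 and -1.97 (SE 0.75), Bgn by -5.63, -2.86 and -1.93 (SE 0.56) and Fbln2 by -5.37, -4.48 and -2.97 (SE 0.43), each most in ES. None of these 6 genes was called in the interaction test, with adjusted p of 0.37 for Bgn, 0.56 for Tnc, 0.71 for Fbln2 and 1 for the others. In the model of 20 groups Bgn (0.0067), Tnc (0.0035) and Fbln2 (0.031) were called. A p that misses the threshold does not show that the lines changed alike.

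The remaining large rises came from genes of varied function. Car14, a membrane carbonic anhydrase, read 8.90, 9.63 and 10.39 at day 2 and 6.05, 6.56 and 7.19 in untreated cells. It changed by 2.99 ± 0.27 (limma adjusted p = 1.9e-05), with all day 2 arrays above. Aph1a, a subunit of gamma-secretase, changed by 3.31 ± 0.34, the largest rise, on 1 of its 4 probes; the other 3 did not pass the detection filter. The 2 genes lie next to each other and overlap at their ends in RefSeq (GRCm38.p6), so that the Aph1a signal and the Car14 signal cannot be told apart here. Sema6a, a semaphorin of axon guidance, read 8.57, 8.89 and 9.02 at day 2 and 5.29, 6.60 and 7.15 in untreated cells (2.51 ± 0.26, adjusted p = 5.3e-05). Cldn5, a claudin of endothelial and early embryonic junctions, changed by 2.24 ± 0.23 and was detected on 1 untreated array. The summed signal of the 3 tested endothelial markers, Cldn5 among them, was 157 to 377 on day 2 arrays and 63.6 to 124 on untreated arrays, and Kdr (0.52) and Tek (0.27) did not pass. In the longer endothelial list of 9 tested genes, Vwf, the von Willebrand factor, was lower (-1.33 ± 0.37, adjusted p = 0.039). This Vwf call was lost in 19 of 30 alternative settings. Its fall was largest in ES (-2.9), and without that line it was -0.53 and missed the threshold (adjusted p = 0.40).

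The long noncoding RNA Miat changed by 1.98 ± 0.20 and Vrtn, a factor known for setting vertebral number in pigs, by 1.92 ± 0.32. Pdk1, which restrains pyruvate entry into the citric acid cycle, read 7.92, 8.65 and 9.30 at day 2 and 6.03, 7.00 and 7.50 in untreated cells (1.73 ± 0.24, limma adjusted p = 4.6e-04). A second Pdk1 probe gave 0.24, so the 2 probes disagree. The haematopoietic LIM factor Lmo2 changed by 1.83 ± 0.31. Tmem100, a membrane protein downstream of BMP signalling in endothelium, was undetected on all untreated arrays and at least 2.03-fold higher at day 2 (adjusted p = 0.0011), a call lost in 4 of 30 settings. Mt3, a metallothionein, had arrays that overlapped, at 7.22 to 9.95 at day 2 and 4.63 to 8.50 in untreated cells. Its call (2.29 ± 0.65, adjusted p = 0.039) was lost in 14 of 30 alternative settings, 8 of them without a single array, with adjusted p up to 0.36.

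**Figure D4:**
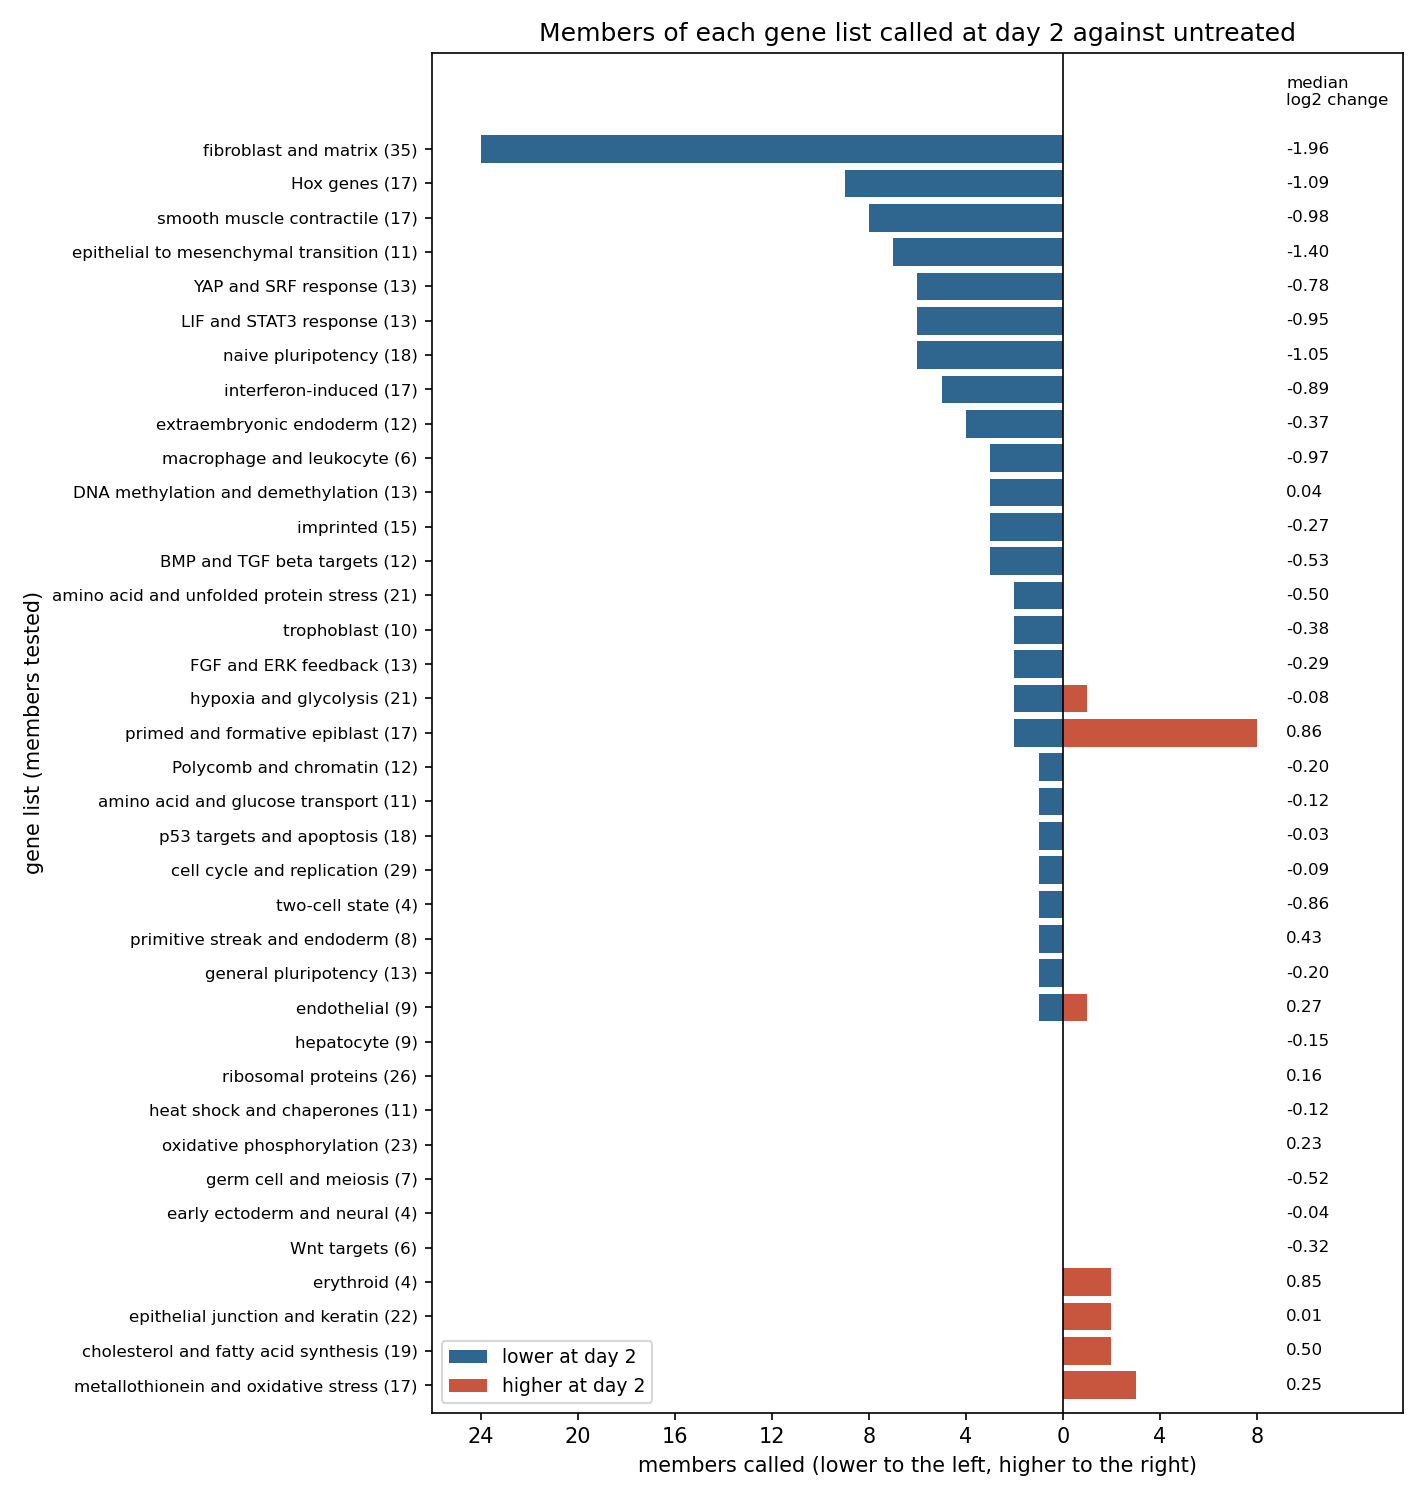
Members called lower (bars to the left) and higher (bars to the right) at day 2 in each of 36 gene lists and the Hox genes, with the number tested in parentheses and the median log2 change of the tested members at the right edge. The fibroblast and matrix list has 24 lower members of 35, and the primed and formative epiblast list has 8 higher of 17. Over all genes tested 4.37% were lower and 1.61% higher. The lists were chosen with earlier results of these data known, so the counts are a description.

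Interferon-induced genes included 5 lower members of 17 tested, where 4.37% of all genes were lower, with 0 higher and a median of -0.89, or -0.78 with undetected genes at their bounds. Of the 7 detected on all 12 arrays 1 was lower (14.3%), against 2.46% of all such genes. Without the first day 2 GPSC-B array 9 were lower, and on the arrays numbered 1 and 2 alone 3 and 2. Usp18, the protease that removes ISG15 from proteins, was undetected on all day 2 arrays. It read 4.48, 4.77 and 4.93 at day 2 and 6.36, 7.36 and 10.02 in untreated cells, at least 3.42-fold lower (limma adjusted p = 4.2e-04), with the untreated ES arrays highest. Isg15, the ubiquitin-like modifier itself, read 4.62, 5.13 and 5.78 at day 2 and 6.07, 7.74 and 9.18 in untreated cells, a change of -2.53 ± 0.38 (adjusted p = 9.5e-04). Ifi27 changed by -2.98 ± 0.25, the MHC class I light chain B2m by -1.85 ± 0.36 and the guanylate-binding protein Gbp2 by -1.42. Oasl2 (0.06), Ifit2 (-0.10) and Tap1 (0.32) did not pass. The Isg15 window from RefSeq is shown because it carries the core of the interferon response element, searched on both strands as GAAA, any 2 bases and GAAA. Its 250 bases before the start (GRCm38.p6 chr4:156200819-156201068, minus strand) hold 3 overlapping matches between -78 and -57, in capitals.
Isg15: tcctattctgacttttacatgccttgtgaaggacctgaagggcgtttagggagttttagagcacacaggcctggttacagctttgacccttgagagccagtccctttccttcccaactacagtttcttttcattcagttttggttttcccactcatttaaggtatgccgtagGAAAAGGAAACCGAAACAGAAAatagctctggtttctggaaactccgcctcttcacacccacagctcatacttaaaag
The motif was in 2.98% of 32851 windows, and in a window of 3.46% of genes. Of the 15 tested interferon genes with a window 6 held it, and so did 3 of the 3 lower genes with a window.

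In the cell cycle and replication list 1 of 29 tested members was lower (3.45%), near the 4.37% of all genes, namely cyclin D2 (Ccnd2), at 7.11, 7.74 and 8.27 at day 2 and 9.88, 10.48 and 10.92 in untreated cells (-2.76 ± 0.23, limma adjusted p = 1.3e-05). The other 28 did not pass, with cyclin D1, Ccnd1, at -0.25 and Pcna at 0.69. No member was called among 26 ribosomal protein genes, 23 genes of oxidative phosphorylation and 11 chaperones, with list medians of 0.16, 0.23 and -0.12. Of 16 primitive streak and endoderm genes 8 were tested and 1, Fgf17, was lower (-1.56). That is 12.5% of few members, against 4.37% of all genes. Eomes (0.83), Gsc (0.97) and Lhx1 (1.18) did not pass, and T and Gata6 missed the detection filter. Of 29 hepatocyte genes 9 were tested and 0 were called. The extraembryonic endoderm list had 4 lower of 12 (33.3%, against 4.37% of all genes). Of the 9 detected on all 12 arrays 3 were lower, against 2.46% of all such genes. The 4 were the basement membrane genes Col4a1 (-1.47), Col4a2 (-1.94) and Sparc (-1.41) and the plasminogen activator Plat (-1.69). Without ES or without GPSC-A 2 were lower, as Col4a1 and Plat lost their calls.

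**Figure D5:**
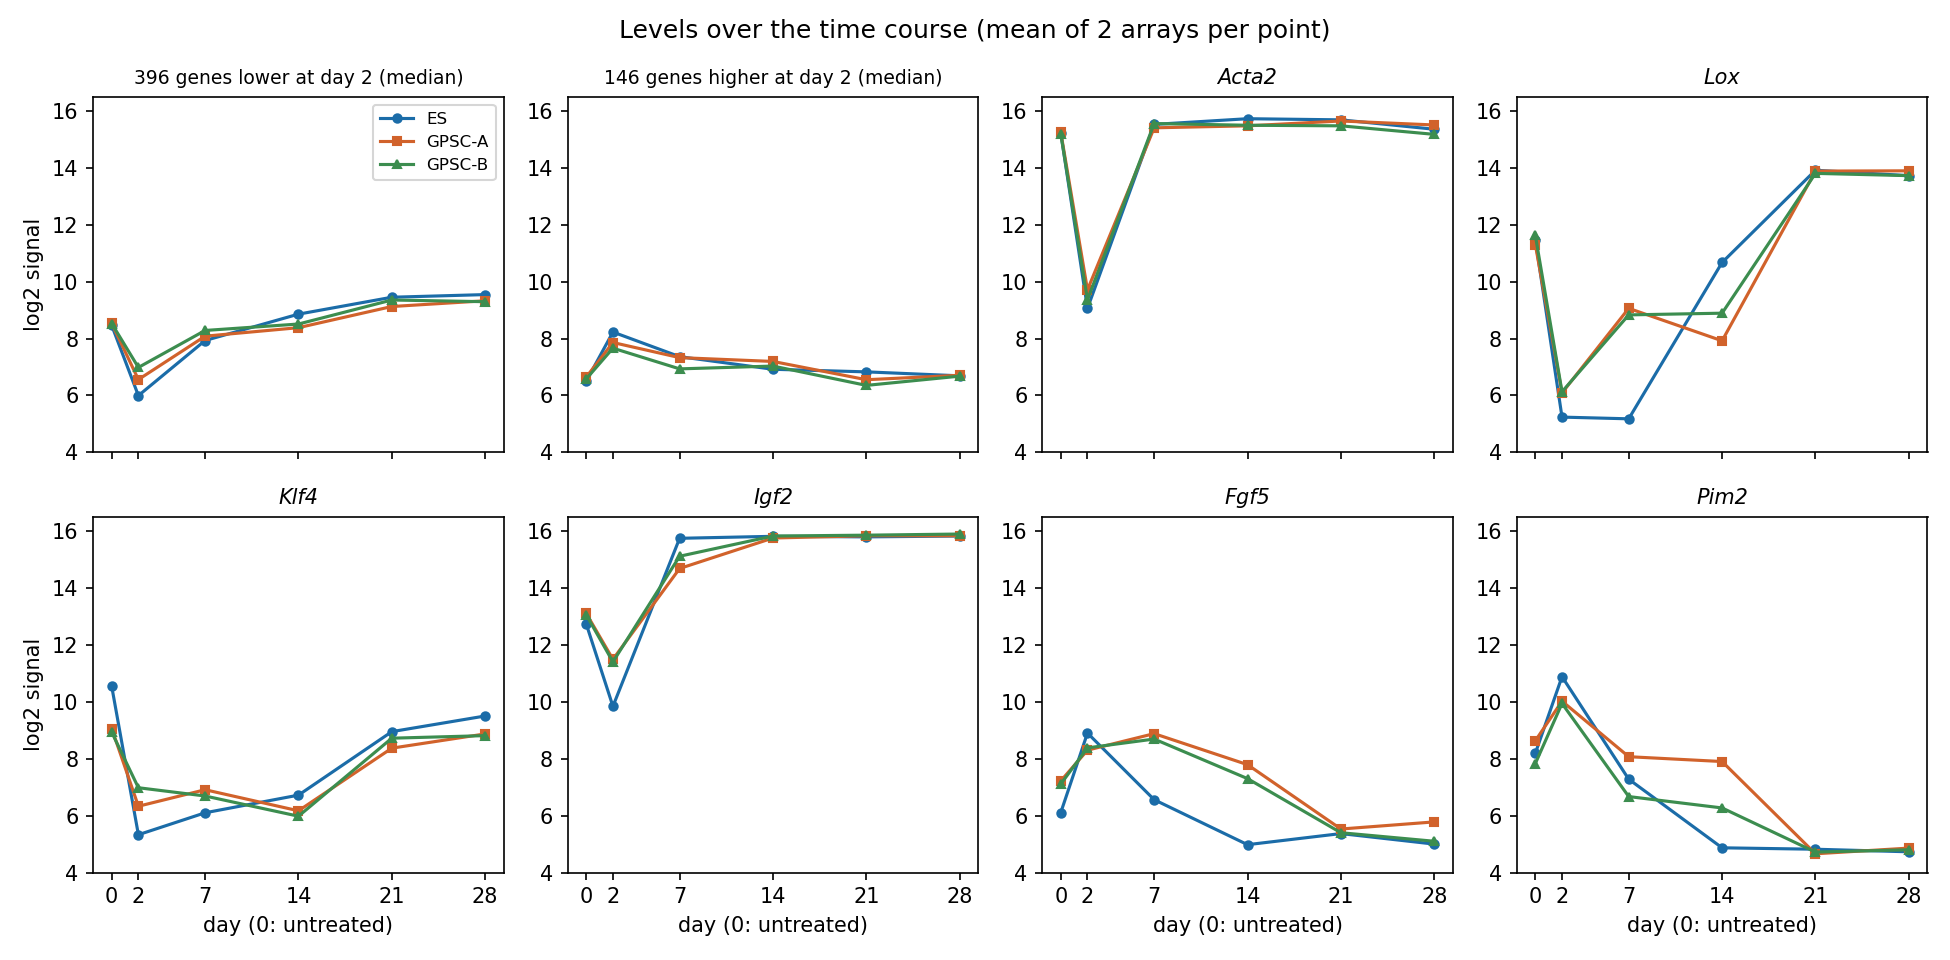
Log2 signal over the time course in ES, GPSC-A and GPSC-B, as the median of the 396 lower and the 146 higher genes and as means of 2 arrays for 6 genes, with untreated cells at day 0. Acta2 in ES reads 15.21 in untreated cells, 9.06 at day 2 and 15.52 at day 7.

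Levels at later days are a description, since the genes were chosen by the first 2 groups. The median level of the 396 lower genes in ES was 8.46 in untreated cells, 6.0 at day 2, 7.93 at day 7, 8.86 at day 14, 9.45 at day 21 and 9.54 at day 28. In GPSC-A it was 8.53, 6.56, 8.08, 8.38, 9.12 and 9.33 over the same days, and in GPSC-B 8.53, 6.98, 8.28, 8.51, 9.35 and 9.29. Day 2 was thus the lowest point of the course in each line. Acta2 was back at 15.40 to 15.55 by day 7 in the 3 lines. Lox stood at 5.18 in ES and 9.06 and 8.83 in GPSC-A and GPSC-B at day 7, and at 13.72 to 13.89 at day 28. Klf4 read 5.33 in ES at day 2, 6.10 at day 7 and 9.5 at day 28. The 146 higher genes had a median of 6.50 in untreated ES cells, 8.23 at day 2, 7.36 at day 7 and 6.69 at day 28. Pim2 in ES read 8.19 in untreated cells, 10.88 at day 2 and 4.73 at day 28. Fgf5 read 6.11 in untreated ES cells, 8.90 at day 2 and 6.56 at day 7, and in GPSC-A 7.22, 8.30 and 8.88.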

How the data were processed

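Groups were taken from the sample titles. Per the file headers, the deposited scanner table holds each probe's signal intensity without normalisation, and a detection p-value. The submitters' processing notes name GenomeStudio, whose version the sources used here do not state. The deposited series matrix is also a linear intensity, made by unstated steps, and served as an alternative.

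Over 42 arrays, neqc (limma 3.58.1, R 4.3.3) applied normexp background correction from the detection p-values, quantile normalisation and log2 after adding 16. Probes needed a detection p under 0.01 on at least 2 of the 12 arrays (15443 passed), and the probe with the highest mean stood for a gene. Of 45281 probes 34885 had 1 symbol, 18 several and 10378 none. Unnamed probes, 2141 of those passing, were left out, which gave 9070 genes. Day and line were fitted with lmFit and eBayes, and the interaction in a second model. Calls needed a Benjamini-Hochberg adjusted p under 0.05 with at least 2-fold change. Adjusted p-values in the text are limma's, changes are day 2 minus untreated, and ± is the standard error.

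Where a probe was undetected on all 6 arrays of a day, the fold is a bound: the other day's mean was set against a floor, which on each array is the dimmest detected probe or, if brighter, the probe itself. The number of arrays limits the precision.

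Named genes were the 15 largest rises and falls detected on both days, up to 8 of the largest bounds each way (8 lower, and the 1 higher that qualified), up to 4 called members per list, the 6 smallest interaction p-values and a set of anchors. Not all are printed, and other list members stand beside them, chosen after their values were seen. Members and lists were chosen with earlier results of these data known, and the Hox list after its values were seen. Lists share genes.

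Replicate numbers come from the titles. Deviations of same-numbered arrays from their group means correlated at 0.40 (ES), 0.54 (GPSC-A) and 0.59 (GPSC-B), so the numbers may pair arrays within a line. The reported fits, standard errors and p-values did not use this pairing. It entered only the alternative with a replicate block within line. There 1739 genes had a limma adjusted p under 0.05 at any fold, against 996 as reported. The models were tested on simulated data with noise drawn independently for each array, so that test did not cover such pairing. Alternatives covered scaling, background, offset, filters, probe choice, model terms and left-out arrays or lines. Promoters came from RefSeq (GRCm38.p6), and Python 3.11.15 with matplotlib 3.10.9 drew the figures.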

Additional observations from a re-analysis of the deposited data

Results flagged for a closer look

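2 genes moved in opposite directions in different lines, with both day 2 arrays on one side of both untreated arrays in one line and on the other side in another. Lrrc34, a leucine-rich repeat gene of germ and pluripotent cells, had log2 changes of -1.91 (ES), 1.17 (GPSC-A) and 0.36 (GPSC-B). Nr5a2, a nuclear receptor that can drive Pou5f1, changed by -2.38 in ES and by 0.42 in GPSC-B. In the F test of day and line over all genes, limma's adjusted p was 0.084 for Lrrc34 and 0.097 for Nr5a2, so neither difference was called. In the model of all 20 groups both were, at 0.0093 for Lrrc34 and 0.018 for Nr5a2. The opposite directions as such were not tested. A second Nr5a2 probe gave -0.06 over the 3 lines, against -0.64 for the probe used.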

How the results depend on the processing

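Counts are total, higher and lower genes. As reported they were 542, 146 and 396. Median scaling gave 284, 24 and 260, no background correction 221, 26 and 195, the series matrix 223, 25 and 198, an offset of 50 368, 75 and 293, leaving out ES 330, 70 and 260, and the arrays numbered 2 alone, an alternative chosen after seeing the data, 235, 33 and 202. The other settings stayed within 1.5 times. With the replicate block within line there were 569, 158 and 411, and 0 with an interaction; of the named genes Tfap2c (adjusted p = 0.0567) and Vwf (0.0547) lost their calls and no other call changed. Leaving out 1 array in turn gave 474 to 606 genes, 115 to 185 higher and 350 to 429 lower, and 0 with an interaction. Genes whose change differed between lines numbered 75 with all 20 groups, 6 with an offset of 50 and 5 each without background correction, with the series matrix and with a prior variance that followed the level, against 0 as reported. Fewer samples enter the fits without ES or with 1 array number, and the cause of the other shifts was not tested. Of 100 named genes that were called, 42 kept the call in all 30 settings, and 0 of the 113 named genes reversed a call. Leaving out ES ended 24 of these calls, and the arrays numbered 2 alone 45. Values of undetected probes have no order among themselves, so falls to that level are bounds.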

Other observations

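Hox genes, the factors that pattern the body axis, were tested as a list added after their values were seen. Of 38 genes 17 passed the detection filter, and 9 were lower at day 2 and 0 higher, where 4.37% of all genes were lower. The median was -1.09, or -0.96 with undetected genes at their bounds. Hoxa5 read 4.62, 5.63 and 7.35 at day 2 (lowest, median and highest of 6 arrays) and 8.77, 9.59 and 10.14 in untreated cells, a change of -3.85 ± 0.38 (limma adjusted p = 4.1e-05). Hoxc6 changed by -2.94 ± 0.30, Hoxa2 by -2.24 ± 0.30 and Hoxb1, an anterior hindbrain gene, by -1.95 ± 0.27. Hoxd13 (0.15) and Hoxa13 (0.30), which act at the posterior end and in limbs, did not pass. Of the 2 members detected on all 12 arrays 1 was lower.

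Imprinted genes had 3 lower members of 15 tested (20%), against 4.37% of all genes. Igf2, the paternally expressed growth factor, read 9.61, 11.17 and 11.97 at day 2 and 12.25, 13.10 and 13.35 in untreated cells (-2.05 ± 0.28, limma adjusted p = 4.5e-04). Grb10 (-1.46) and Peg10 were the others. A second Grb10 probe, detected on 5 arrays, gave -0.28, and the Grb10 call was lost in 4 of 30 alternative settings. Peg10 was undetected on all day 2 arrays and at least 1.20-fold lower (adjusted p = 0.0027), so a 2-fold fall is not shown. Zscan4c, a gene of the sporadic two-cell-like state, changed by -2.07 ± 0.19, with values of 9.18 to 10.58 at day 2 and 11.24 to 13.07 in untreated cells, though its close paralogues may share the probe. Lyz2 and Lyz1, the lysozymes of myeloid cells and Paneth cells, changed by -3.09 ± 0.38 and -1.90 ± 0.34, and as near-identical genes they cannot be told apart here. The macrophage markers Ptprc, C1qa, C1qb, Adgre1 and Tyrobp did not pass the detection filter, and Csf1r (0.28) was not called.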
